A study of Mus musculus with 32 samples.

Results

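The genes described here were 50 known genes of the cell cycle and of DNA replication, chosen by symbol. They were chosen with earlier results of these data known. All 50 were found among the 25239 genes counted in mouse amygdala. The amygdala is the brain region where fear and stress signals are integrated, and nearly all of its neurons have left the cell cycle. Wild-type (WT) mice were injected stereotaxically in the amygdala with 4-thiouridine (4sU, 100 mM in DMSO), a uridine analogue that new RNA takes up, or with DMSO alone. RNA was taken from the amygdala of both sides 24 h later, so every group had an injection, and the 2 injections differed only in the 4sU. The 26 libraries fell into 6 groups: 5 from 4sU mice and 4 from DMSO mice at baseline, 5 and 5 under acute stress, and 4 and 3 under chronic stress. The labels give no age, sex or stress protocol, nor do they state that each library is 1 animal, and p-values therefore cover the spread between libraries, which may be technical.

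A cell that divides copies its DNA once in S phase and parts the copies in mitosis. Replication starts where CDT1 helps to load the MCM2 to MCM7 helicase on DNA, and goes on with the clamp PCNA, with ribonucleotide reductase (RRM1 and RRM2), which makes DNA precursors, and with LIG1, which joins the pieces. Cyclins with CDK1 and the kinases PLK1 and Aurora drive mitosis, in which condensin and TOP2A shape the chromosomes, kinesins move them, and ANLN helps to cleave the cell. In the adult brain these genes are known mainly from oligodendrocyte precursors, from neural progenitors and from immune and vascular cells, since neurons do not divide.

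Levels are given as CPM, exon counts scaled by library size and TMM factor over the 26 libraries, and compared between genes only per kilobase of exon. Most members were at low levels, though all 50 had enough reads to be tested. Of the 50, 35 had a mean under 5 CPM and 7 a mean under 1 CPM. Ccnb1 and Bub1 had libraries with 0 reads. Per kilobase, the highest mean level was that of Pcna at 38.4, followed by Anln at 16.6 and Mcm7 at 7.02 CPM per kb. Mki67, the textbook marker of dividing cells, stood at 0.405 CPM per kb and Top2a at 0.670, while Cenpf was lowest of all at 0.0815. Libraries held 16150316 to 21228741 exon reads, so the members with under 1 CPM rest on few reads in each library. In bulk tissue, fewer dividing cells and less RNA per dividing cell cannot be told apart. Anln is also a gene of myelinating oligodendrocytes, and its level of 52.9 to 187 CPM was above that of any other mitotic member. By position, 15 members overlap another gene of the table (Pclaf and Trip4, for example), and the treatment of strand and of reads with several matches is not given in the sources used here. Their counts are less certain for that reason.

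Markers of the tissue were checked beside these levels. The 7 amygdala markers listed were all detected, with a summed level of 175 to 337 CPM over the 26 libraries. Markers of cells that can divide were present in every group: 11 oligodendrocyte precursor markers summed to 536 to 868 CPM, 11 progenitor and neuroblast markers to 237 to 349 CPM and 8 microglia markers to 446 to 668 CPM, with none at 0 in a whole group. Infiltrating leukocyte markers were low, 8.80 to 23.7 CPM over 9 genes. The 10 libraries of 4sU mice at baseline and under acute stress also stood apart in how reads lay on transcripts: 16.1% to 17.4% of their reads fell in 3′ UTR intervals, while the share was 18.2% to 23.9% for the 16 remaining libraries. Comparisons across this division are 4sU against DMSO at baseline and under acute stress, and chronic stress against baseline or acute stress in 4sU mice. In them the division and the groups cannot be told apart. The 4sU and DMSO libraries of chronic stress lie on the same side of it, as do all DMSO libraries. Apart from this, 6 libraries were low in glutamatergic neuron markers. They were 3 of acute stress DMSO mice (replicates 1, 3 and 4), 2 of chronic stress 4sU mice (replicates 3 and 4) and 1 of chronic stress DMSO mice (replicate 1).

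**Figure D1:**
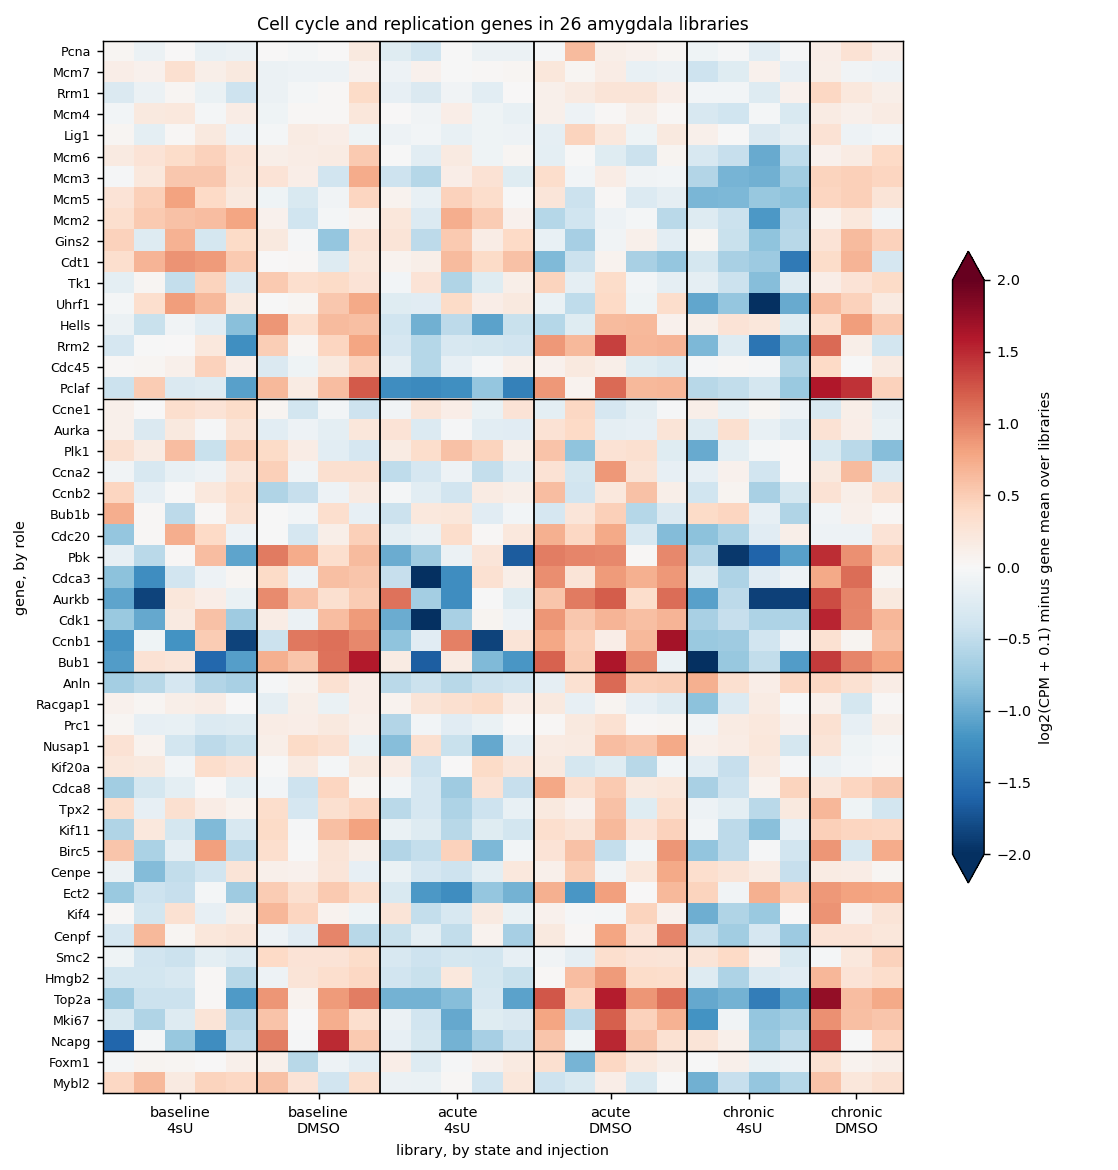
Level of each of the 50 genes in each of 26 libraries, as log2(CPM + 0.1) minus the gene's mean over libraries. Columns run by state with 4sU left of DMSO, and rows by role (from the top, replication; cyclins, kinases and checkpoint; spindle, kinetochore and cytokinesis; chromosome structure; transcription factors). Top2a and Pclaf are bluer in 4sU than in DMSO libraries of each state, and Mcm3, Mcm5 and Uhrf1 are blue in the 4 chronic stress 4sU libraries.

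At baseline, 12 of the 50 members were lower and 4 higher in 4sU than in DMSO mice, that is 32% called (adjusted p under 0.05, edgeR). Of all genes tested 41.9% were called in this comparison, so the members were not called more often than other genes. All 5 chromosome structure genes were lower, against 3 of 13 spindle genes, 1 of 13 cyclin, kinase and checkpoint genes and 3 of 17 replication genes. Over all 15995 genes tested 3316 were lower and 3378 higher. The members' median log2 fold change was -0.17, and that of all genes -0.01.

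Top2a, the topoisomerase that untangles replicated DNA, had 1.67, 2.05, 2.04, 2.85 and 1.22 CPM in 4sU libraries and 5.24, 2.95, 5.103 and 5.75 CPM in DMSO libraries at baseline. Every 4sU library lay below every DMSO library, and the log2 fold change was -1.26 ± 0.26 SE, adjusted p = 0.0006. Ncapg, a condensin subunit, had 0.119, 0.543, 0.291, 0.178 and 0.365 CPM in 4sU libraries, against 1.24, 0.546, 1.76 and 0.847 CPM in DMSO libraries. The groups did not overlap, and the log2 fold change was -1.84 ± 0.44 SE, adjusted p = 0.00204. Its partner in condensin, Smc2, also fell without overlap (log2 fold change -0.59 ± 0.11 SE, adjusted p = 0.000203). The proliferation marker Mki67 had 2.97, 2.41, 3.08, 4.45 and 2.44 CPM in 4sU libraries and 5.58, 3.71, 6.24 and 4.72 CPM in DMSO libraries, which overlapped through 1 high 4sU library. Its log2 fold change was -0.71 ± 0.27 SE, adjusted p = 0.0435. Bub1, Pclaf, Hells, Ect2, Kif11, Anln, Rrm2 and Hmgb2 fell as well, by 0.54 (Hmgb2) to 1.77 (Bub1) on the log2 scale. Bub1 is a spindle checkpoint kinase with 1.36 CPM or less in every library.

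The 4 members that were higher at baseline act before or at the start of S phase. Cdt1, which loads the helicase on origins, had 3.21, 4.102, 4.77, 4.63 and 3.66 CPM in 4sU libraries and 2.53, 2.56, 2.098 and 2.96 CPM in DMSO libraries, with no overlap (log2 fold change 0.69 ± 0.20 SE, adjusted p = 0.00962). Mcm2 of the helicase had 10.1, 11.5, 12.04, 12.3 and 13.9 CPM in 4sU libraries, against 8.51, 6.06, 7.77 and 8.41 CPM in DMSO libraries (log2 fold change 0.65 ± 0.18 SE, adjusted p = 0.00644). Again no 4sU library was as low as a DMSO library. Mcm7 and Ccne1, the cyclin of S phase entry, were higher by 0.24 and 0.42 on the log2 scale. Not called at baseline were, among others, these log2 fold changes: -0.11 for Pcna, 0.08 for Mcm3, 0.08 for Mcm6, -0.67 for Cdk1 and -0.34 for Ccna2.

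Under acute stress, falls in 4sU mice took in genes of every role but the transcription factors. Of the 50 members 24 were lower and 3 higher in 4sU than in DMSO mice, or 54.0%, where 48.3% of all genes tested were called. Falls took in 9 of 13 spindle, kinetochore and cytokinesis genes, all 5 chromosome structure genes, 5 of 13 cyclin, kinase and checkpoint genes and 5 of 17 replication genes. Over all 15995 genes tested 3969 were lower and 3756 higher. The members' median was -0.36 and that of all genes 0.00 on the log2 scale.

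Pclaf, which binds PCNA at replication forks, had 0.432, 0.417, 0.433, 0.635 and 0.389 CPM in 4sU libraries and 2.19, 1.21, 2.66, 1.86 and 1.88 CPM in DMSO libraries under acute stress (log2 fold change -2.07 ± 0.31 SE, adjusted p = 1.88e-05). Top2a had 1.405, 1.41, 1.49, 2.22 and 1.28 CPM in 4sU libraries, against 6.75, 3.81, 8.52, 5.24 and 6.08 CPM in DMSO libraries (log2 fold change -1.96 ± 0.25 SE, adjusted p = 2.92e-06). For both genes the groups were apart, and 1 DMSO library, replicate 2, was the lowest of its group. Cdk1, the kinase that starts mitosis, had 0.432, 0.104, 0.578, 1.01 and 0.8901 CPM in 4sU libraries and 1.85, 1.44, 1.598, 1.51 and 1.603 CPM in DMSO libraries, with a log2 fold change of -1.41 ± 0.39 SE, adjusted p = 0.00556. Rrm2, the S phase subunit of ribonucleotide reductase, had 1.68, 1.41, 1.69, 1.64 and 1.61 CPM in 4sU libraries, against 3.98, 3.41, 5.68, 3.44 and 3.48 CPM in DMSO libraries. Its groups also did not overlap, and its log2 fold change was -1.32 ± 0.23 SE, adjusted p = 8.42e-05. Mki67 had 3.404, 2.81, 1.78, 3.12 and 3.004 CPM in 4sU libraries and 6.46, 2.54, 8.58, 5.13 and 6.08 CPM in DMSO libraries. The DMSO replicate 2 lay within the 4sU range, and the log2 fold change was -1.03 ± 0.26 SE, adjusted p = 0.00263.

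The other large falls under acute stress were those of Bub1, Pbk (a mitotic kinase), Ncapg, Ect2 (which sets the plane of cleavage) and Cdca3, with log2 fold changes of -1.33 to -1.73. Pcna fell by 0.37, Ccna2, the cyclin of S phase and G2, by 0.58, Hmgb2, a chromatin protein of dividing cells, by 0.74 and Hells, a chromatin remodeller, by 0.88. Cdt1 and Mcm2 were higher, by 0.90 and 0.61 on the log2 scale, and Racgap1, which acts with Ect2, by 0.30. Birc5 and Ccnb1, both mitotic, were not called at baseline or under acute stress, with log2 fold changes of -0.05 and -0.59 (Birc5) and of -1.71 and -1.06 (Ccnb1) with 1.05 CPM or less of Ccnb1 in every library. Mcm3 and Mcm6 were not called either, at -0.20 and 0.15. Without the 6 libraries low in glutamatergic markers, 19 members were called under acute stress, 16 of them among the 27, and Mki67 was not one of them.

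Both comparisons cross the division in 3′ UTR reads, and markers of other cell types moved with the members. All 7 myelin and oligodendrocyte markers were lower in 4sU mice at baseline and under acute stress, with medians of -0.80 and -1.38 and no overlap in their summed level under acute stress, 7595 to 9703 CPM in 4sU and 17140 to 27410 CPM in DMSO libraries. Of 6 endothelial markers 5 and 3 were lower, and of 8 microglia markers 3 and 4. Oligodendrocyte precursor markers went both ways, 3 higher and 3 lower of 11 at baseline, 2 higher and 5 lower under acute stress. The part of these cells in the members' values was not tested. Other lists had higher summed levels in 4sU mice. Progenitor and neuroblast markers summed to 306 to 339 CPM in 4sU and 271 to 294 CPM in DMSO libraries at baseline. Under acute stress they summed to 327 to 349 and 266 to 314 CPM. Their mean log2 CPM overlapped between the injections, at 3.815 to 3.932 and 3.786 to 3.954 at baseline. Under acute stress it also overlapped, at 3.644 to 3.971 and 3.395 to 3.843. Glutamatergic markers summed to 690 to 1090 CPM in 4sU and 411 to 672 CPM in DMSO libraries at baseline. With 3′ UTR reads in place of exon reads, 28 members could be tested, of which 10 were called at baseline and 12 under acute stress. Of the 16 members called at baseline, 6 were called again, 5 missed the threshold (Kif11, Mcm2, Mcm7, Pclaf and Rrm2) and 5 had too few such reads to test, Top2a, Mki67 and Cdt1 among them. Of the 27 called under acute stress, 9 were called again, 6 missed the threshold, Mcm2 among them, and 12 could not be tested.

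**Figure D2:**
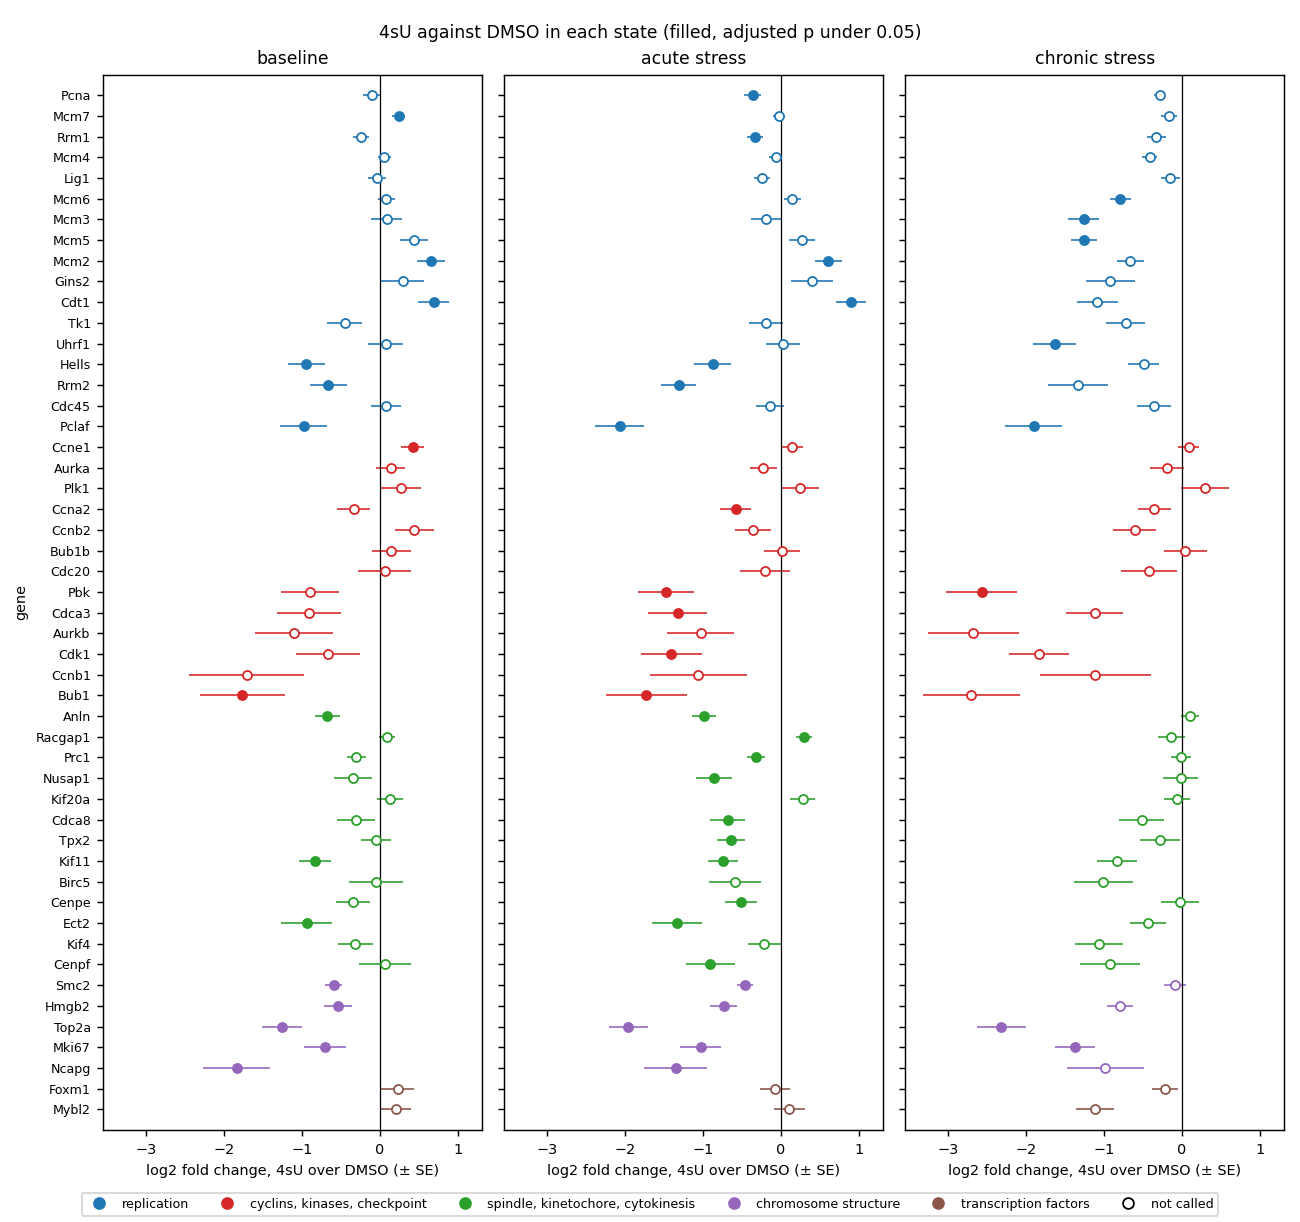
Log2 fold change of 4sU over DMSO libraries for each of the 50 genes, one panel per state, with bars of 1 SE. Filled points have an adjusted p under 0.05, 16 at baseline, 27 under acute stress and 8 under chronic stress. Colours mark the role, and blue replication genes are spread around 0 at baseline but lie below 0 under chronic stress.

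Under chronic stress 4sU and DMSO mice differed in few genes of any kind, and cell cycle genes were 8 of the 18 that were lower. Over all genes tested 0.137% were called, 22 of 16096, with 4 higher and 18 lower. Of the 50 members 8 were called (16%), all lower: Pbk, Top2a, Pclaf, Uhrf1, Mki67, Mcm3, Mcm5 and Mcm6. As the members were chosen with earlier results of these data known, their share beside that of all genes is only a description. Another 20 members had an unadjusted p under 0.05 without passing the adjusted threshold, for 28 in all. The members' median log2 fold change was -0.64, against 0.00 for all genes tested. By role, 5 replication genes, 2 chromosome structure genes and 1 kinase were called, and none of the 13 spindle genes.

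Of the 8, 4 were lower under chronic stress alone among the 3 states, and belong to the helicase and to replication-coupled chromatin. Mcm5 (chr8:75109509-75128439, plus strand, mm10) had 4.32, 4.37, 4.85 and 4.67 CPM in 4sU libraries and 11.2, 11.5 and 9.86 CPM in DMSO libraries. Both groups were tight and far apart, means of 4.55 ± 0.25 and 10.8 ± 0.87 CPM (SD, n = 4 and 3), and the log2 fold change was -1.26 ± 0.17 SE, adjusted p = 0.00654. Mcm3 (chr1:20802968-20820312, minus strand) had 4.84, 3.83, 3.73 and 4.495 CPM in 4sU libraries, against 10.01, 10.3 and 9.92 CPM in DMSO libraries (log2 fold change -1.26 ± 0.20 SE, adjusted p = 0.0202). Mcm6 (chr1:128331575-128359705, minus strand) had 10.1, 9.11, 6.27 and 8.87 CPM in 4sU libraries and 13.5, 14.2 and 16.6 CPM in DMSO libraries, a smaller step (log2 fold change -0.79 ± 0.14 SE, adjusted p = 0.0325). Uhrf1 (chr17:56303337-56323486, plus strand), which carries DNA methylation over to the new strand, had 1.84, 2.25, 0.887 and 1.89 CPM in 4sU libraries, against 6.07, 5.43 and 4.45 CPM in DMSO libraries (log2 fold change -1.64 ± 0.28 SE, adjusted p = 0.0263). None of these 4 genes overlapped between the groups. The lowest library for each of Mcm3, Mcm6 and Uhrf1 was 4sU replicate 3, which was low in glutamatergic markers. That a call was made in this state and not in the others does not show a difference between states, which is tested further on for baseline.

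Pclaf, Mki67 and Top2a were the members called lower in all 3 states. Top2a (chr11:98992947-99024189, minus strand) had 1.32, 1.397, 1.01 and 1.301 CPM in 4sU libraries and 9.72, 4.32 and 4.79 CPM in DMSO libraries under chronic stress, and the log2 fold change was -2.32 ± 0.32 SE, adjusted p = 0.00654. The 4sU libraries lay close together, while DMSO replicate 1, which was low in glutamatergic markers, was above the other DMSO libraries. Mki67 (chr7:135689788-135716379, minus strand) had 1.56, 3.52, 2.13 and 2.25 CPM in 4sU libraries, against 7.12, 5.65 and 5.47 CPM in DMSO libraries (log2 fold change -1.37 ± 0.26 SE, adjusted p = 0.0474). Pclaf (chr9:65890323-65903551, plus strand) had 0.749, 0.789, 0.887 and 0.651 CPM in 4sU libraries and 3.703, 3.32 and 1.63 CPM in DMSO libraries (log2 fold change -1.91 ± 0.36 SE, adjusted p = 0.0474). Pbk (chr14:65805911-65817822, plus strand), with the lowest mean CPM of the 8 before scaling by exon length, had 0.461, 0.121, 0.177 and 0.296 CPM in 4sU libraries, against 2.26, 1.496 and 1.07 CPM in DMSO libraries (log2 fold change -2.57 ± 0.45 SE, adjusted p = 0.0325). In each of these genes every 4sU library was below every DMSO library.

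Several members had as large a difference without passing the threshold. Bub1 and Aurkb, kinases of the spindle checkpoint and of chromosome attachment, had log2 fold changes of -2.71 ± 0.62 and -2.68 ± 0.58 with adjusted p = 0.0891 and 0.0687. Cdk1 stood at -1.84 ± 0.39 SE, adjusted p = 0.0634, Mybl2, a transcription factor of the cycle, at -1.12 ± 0.24 SE, adjusted p = 0.0673, and Hmgb2 at -0.80 ± 0.16 SE, adjusted p = 0.055. Cdt1 and Mcm2, higher in 4sU mice in the other states, had log2 fold changes of -1.09 ± 0.27 and -0.66 ± 0.17 with adjusted p = 0.121 and 0.156. Pcna, the most abundant member per kilobase, was at -0.29 ± 0.07 (adjusted p = 0.123), Rrm2 at -1.34, Birc5 at -1.01, Ccnb1 at -1.11, Hells at -0.49 and Ccna2 at -0.35. In 28 of the 50 members every 4sU library lay below every DMSO library, and in none above. The same split occurred in 9 members, with 3 above, at baseline and in 9, with none above, under acute stress. Such a split arises more easily in the smaller groups of chronic stress, so the counts of the 3 states are not comparable. How many of all genes split in this way was not counted.

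The chronic stress calls rested on few libraries. Without 4sU replicate 3 or without DMSO replicate 2 the count of called members was 2, and it was 1 once the 6 libraries poor in glutamatergic markers were left out. Mcm5 and Top2a were called in each of 7 fits that left out 1 chronic stress library, Mcm3 in 5, Mcm6 in 4, Uhrf1 in 3, Pbk in 2 and Pclaf and Mki67 in 1, and no such fit turned a direction. A fit of the 7 chronic stress libraries alone called no gene at all, and one of 3′ UTR reads called 0 of 31 members tested (Pbk and Mki67 were not among those), while DESeq2 called 16 members, among them all 8. No marker of another cell type was called lower: of 8 microglia markers none was called (median -0.28), of 7 myelin markers none (median 0.39), and of 11 oligodendrocyte precursor markers Gpr17 alone was called, higher by 0.67. The other lower genes of the 22 included Cd180, Tlr2, Siglec1 and Bin2, genes of microglia and macrophages that were not in the marker lists and were named after their values were seen, with log2 fold changes of -0.89 (Bin2) to -1.54 (Siglec1). The 9 infiltrating leukocyte markers summed to 11.5 to 16.7 CPM in 4sU and 19.5 to 21.7 CPM in DMSO libraries, and Cd3e had 0 reads in the 4sU libraries. Summed levels were higher in 4sU libraries, without overlap, for oligodendrocyte precursor markers (666 to 766 CPM, against 536 to 648 CPM in DMSO libraries) and myelin markers (18640 to 20080 CPM, against 13120 to 16120 CPM). Choroid plexus and ependymal markers were lower, at 417 to 3189 CPM in 4sU and 3482 to 5318 CPM in DMSO libraries. Their part in the members' values was not tested.

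**Figure D3:**
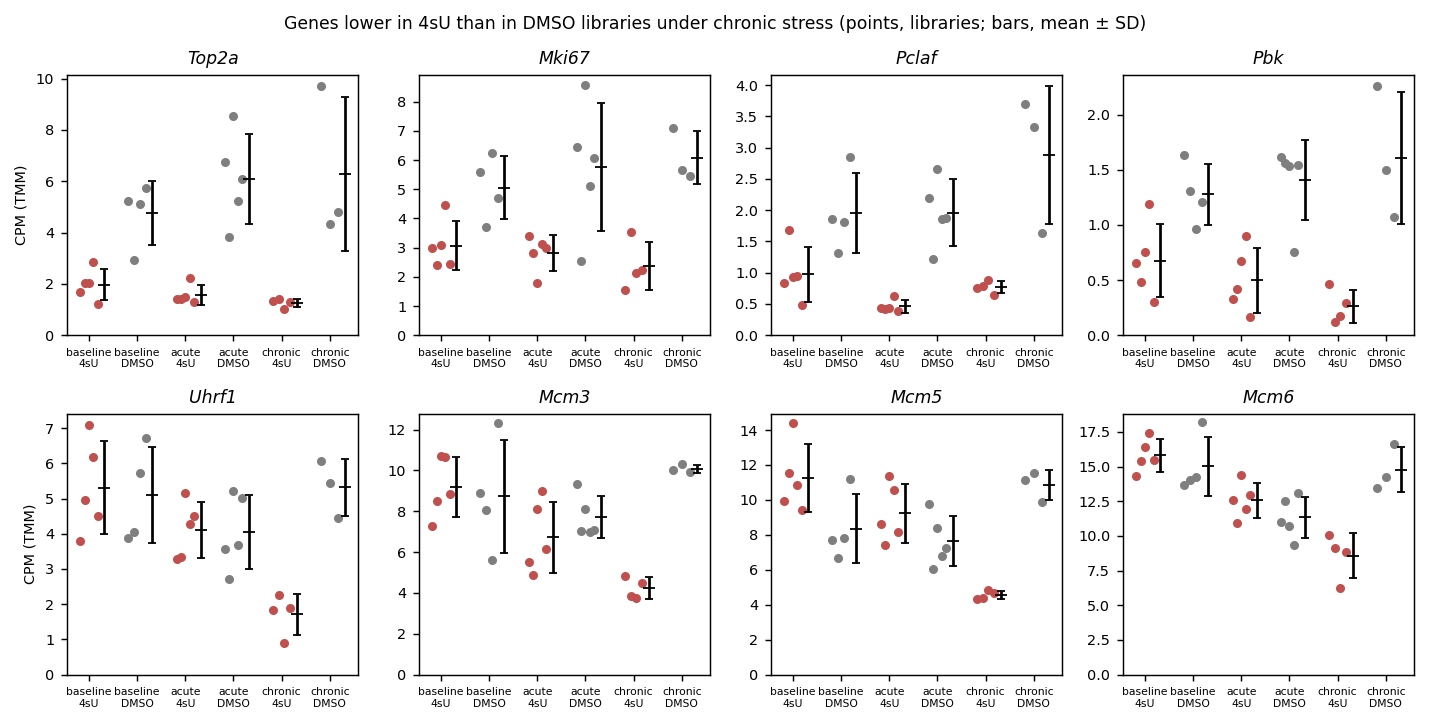
CPM of the 8 genes that were lower in 4sU than in DMSO mice under chronic stress, in every library of the 6 groups (red, 4sU; grey, DMSO; bars, mean ± SD over 3 to 5 libraries). In Top2a the 4 chronic stress 4sU libraries sit at 1.01 to 1.40 CPM and the 3 DMSO libraries at 4.32 to 9.72 CPM. In Mcm3, Mcm5, Mcm6 and Uhrf1 the chronic stress 4sU group has the lowest mean of the 6 groups.

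The promoters of these genes are shown because these genes were lower together in chronic stress 4sU mice and because the cell cycle is known to time its genes through short promoter elements. E2F factors bind letters such as TTCCCGC or TTGGCGC in genes of S phase, the cell cycle homology region (CHR), TTTGAA, is bound by the DREAM and MYB complexes in genes of mitosis, and CCAAT is the letter core bound by NF-Y. RefSeq promoters (GRCm38.p6, the assembly that UCSC calls mm10), from 250 bases before to 50 after a start, matched 42 of the 50 members with 48 promoters. The letters were searched on both strands. E2F letters were in 17 of 48 member promoters (35.4%) and in 6.8% of all 32851 promoters, CHR letters in 24 of 48 and in 17.9%, and CCAAT in 37 (77.1%) and 37.4%. By role the elements parted: E2F letters were in 11 of 19 replication promoters (57.9%) and 2 of 13 spindle promoters (15.4%), and CHR letters in 2 of 19 (10.5%) and 10 of 13 (76.9%). A match is a run of letters, and these shares are a description of the gene list. They have no bearing on which factor was bound, and a part of these elements in the lower levels was not tested.

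The promoters below are of 7 of the 8 genes called under chronic stress (Pbk had no match, and Uhrf1, with 2 listed starts, is shown at the first), 5′ to 3′ on the strand of the gene, with E2F, CHR and CCAAT letters of either strand in capitals. Their places are chr1:20820263-20820562 (Mcm3, minus strand), chr8:75109259-75109558 (Mcm5, plus), chr1:128359656-128359955 (Mcm6, minus), chr9:65890073-65890372 (Pclaf, plus), chr17:56303087-56303386 (Uhrf1, plus), chr11:99024140-99024439 (Top2a, minus) and chr7:135716330-135716629 (Mki67, minus).
Mcm3 promoter: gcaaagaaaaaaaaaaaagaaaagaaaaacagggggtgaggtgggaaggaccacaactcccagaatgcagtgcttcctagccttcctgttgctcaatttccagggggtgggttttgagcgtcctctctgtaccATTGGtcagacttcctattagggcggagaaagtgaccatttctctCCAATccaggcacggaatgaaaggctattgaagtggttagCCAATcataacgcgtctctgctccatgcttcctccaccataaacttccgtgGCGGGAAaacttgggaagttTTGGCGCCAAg
Mcm5 promoter: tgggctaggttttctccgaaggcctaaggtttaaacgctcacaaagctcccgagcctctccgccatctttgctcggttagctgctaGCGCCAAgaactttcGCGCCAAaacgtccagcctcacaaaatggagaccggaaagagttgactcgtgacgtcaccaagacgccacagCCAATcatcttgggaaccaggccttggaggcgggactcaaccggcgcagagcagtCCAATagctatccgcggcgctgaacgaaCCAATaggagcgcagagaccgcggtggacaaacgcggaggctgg
Mcm6 promoter: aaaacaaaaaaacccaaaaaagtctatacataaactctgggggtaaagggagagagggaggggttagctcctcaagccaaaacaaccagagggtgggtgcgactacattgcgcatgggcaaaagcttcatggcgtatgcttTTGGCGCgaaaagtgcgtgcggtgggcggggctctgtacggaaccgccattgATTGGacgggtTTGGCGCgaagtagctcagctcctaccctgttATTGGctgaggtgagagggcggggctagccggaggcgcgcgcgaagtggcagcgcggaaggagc
Pclaf promoter: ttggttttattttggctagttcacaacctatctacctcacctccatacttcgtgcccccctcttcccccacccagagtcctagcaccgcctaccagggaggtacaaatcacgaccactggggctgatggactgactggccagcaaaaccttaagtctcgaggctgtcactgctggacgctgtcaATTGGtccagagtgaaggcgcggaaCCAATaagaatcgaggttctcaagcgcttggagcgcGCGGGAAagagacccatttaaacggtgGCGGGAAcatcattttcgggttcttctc
Uhrf1 promoter: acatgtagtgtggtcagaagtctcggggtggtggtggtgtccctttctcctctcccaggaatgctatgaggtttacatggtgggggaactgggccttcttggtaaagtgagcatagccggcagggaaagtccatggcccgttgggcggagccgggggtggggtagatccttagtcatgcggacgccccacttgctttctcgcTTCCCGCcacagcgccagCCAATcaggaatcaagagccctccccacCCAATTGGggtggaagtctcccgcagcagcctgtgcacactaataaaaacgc
Top2a promoter: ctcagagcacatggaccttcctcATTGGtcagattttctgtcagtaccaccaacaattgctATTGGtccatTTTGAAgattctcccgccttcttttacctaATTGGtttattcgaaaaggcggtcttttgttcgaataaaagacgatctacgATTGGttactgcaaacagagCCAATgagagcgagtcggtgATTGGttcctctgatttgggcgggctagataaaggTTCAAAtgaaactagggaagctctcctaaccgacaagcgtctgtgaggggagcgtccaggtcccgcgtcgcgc
Mki67 promoter: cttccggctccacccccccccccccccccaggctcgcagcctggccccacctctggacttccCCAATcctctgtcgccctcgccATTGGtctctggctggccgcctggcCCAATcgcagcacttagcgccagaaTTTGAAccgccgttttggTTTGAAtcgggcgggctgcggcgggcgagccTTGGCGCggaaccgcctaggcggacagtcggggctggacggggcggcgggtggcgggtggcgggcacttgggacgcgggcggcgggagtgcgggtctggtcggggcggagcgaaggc
The 3 helicase promoters and those of Pclaf and Uhrf1 hold E2F letters, 3 runs in Mcm3 (of which a pair overlap downstream of the start), 2 each in Mcm5, Mcm6 and Pclaf and 1 in Uhrf1, and no CHR letters. Top2a holds 2 runs of CHR letters, 6 of CCAAT and none of E2F, and Mki67 holds 1 of E2F, 2 of CHR and 3 of CCAAT. The shares over all promoters are those given above.

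**Figure D4:**
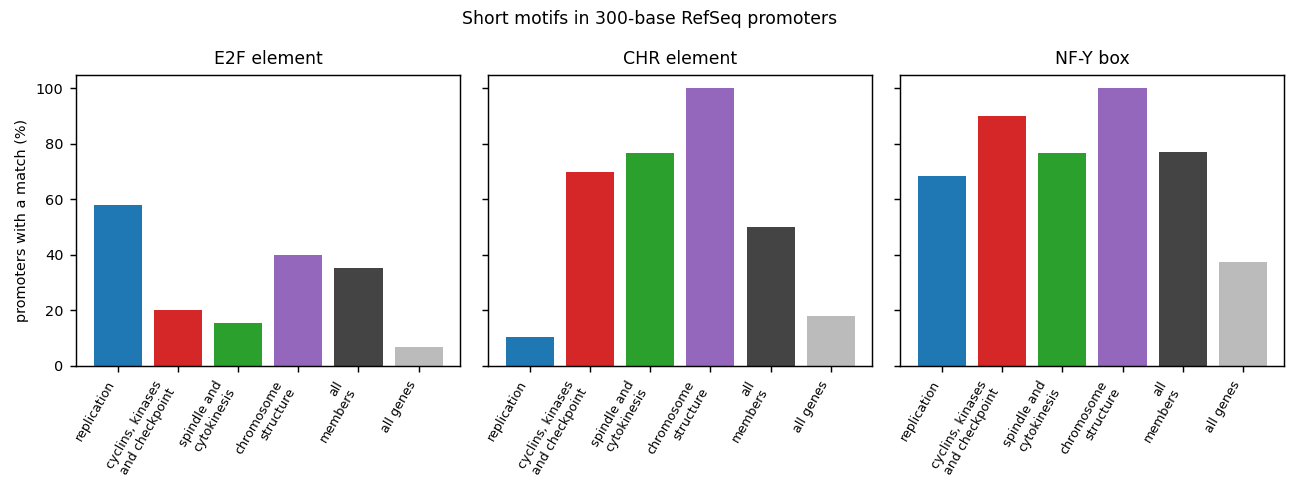
Share of RefSeq promoters that hold the letters of an E2F element, a CHR element or an NF-Y box on either strand, for the members by role (19, 10, 13 and 5 promoters from left to right), for all 48 member promoters and for all 32851 promoters. E2F letters reach 57.9% in replication promoters and CHR letters 76.9% in spindle promoters, with 6.8% and 17.9% over all promoters.

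Stress itself was compared within each injection. Under acute stress no member was called in either injection. In 4sU mice 0.269% of all genes tested were called and 5 members had an unadjusted p under 0.05, and in DMSO mice 2.51% were called and 4 members had one (edgeR). DESeq2 called 0 members in 4sU mice and Mcm6 alone in DMSO mice. Mcm6 had 11.02, 12.5, 10.7, 9.38 and 13.1 CPM in acute stress DMSO libraries and 13.7, 14.03, 14.2 and 18.2 CPM in baseline DMSO libraries, and these did not overlap (log2 fold change -0.39 ± 0.11 SE, adjusted p = 0.0721). In 4sU mice the smallest p was that of Pclaf (log2 fold change -1.07 ± 0.33 SE, adjusted p = 0.376). Log2 fold changes of Mki67 were -0.12 ± 0.27 in 4sU mice and 0.20 ± 0.27 in DMSO mice, and of Top2a -0.33 ± 0.26 and 0.37 ± 0.24. For acute stress against baseline in 4sU mice the log2 fold change was -0.10 for Pcna, -0.28 for Mcm2, -0.45 for Mcm3, -0.33 for Mcm6, -0.45 for Cdk1, -0.26 for Ccna2, 0.72 for Ccnb1, -0.21 for Rrm2, -0.36 for Hells, -0.37 for Birc5, 0.05 for Hmgb2 and -0.30 for Cdt1. In DMSO mice it was 0.16 for Pcna, -0.24 for Mcm2, -0.17 for Mcm3, 0.29 for Cdk1, -0.02 for Ccna2, 0.07 for Ccnb1, 0.44 for Rrm2, -0.43 for Hells, 0.16 for Birc5, 0.25 for Hmgb2 and -0.51 for Cdt1. No gene passed the test of a difference between the injections in the acute stress effect (0.0% called by edgeR, with 916 genes, 5 of them members, at an unadjusted p under 0.05, and 20 genes with DESeq2, none a member).

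Among 124 other genes of the pathway, listed with earlier results known, 1 responded to acute stress in both injections. Cdkn1a, the CDK inhibitor p21, had 33.9, 38.3, 30.1, 32.6 and 26.8 CPM in acute stress 4sU libraries and 8.86, 9.71, 14.2, 9.79 and 9.99 CPM in baseline 4sU libraries. It had 33.7, 33.2, 72.02, 49.7 and 38.96 CPM in acute stress DMSO libraries, against 9.69, 10.5, 14.2 and 30.7 CPM in baseline DMSO libraries. No acute stress 4sU library was as low as a baseline one, and in DMSO mice the groups nearly met through 1 high baseline library. Log2 fold changes were 1.62 ± 0.27 SE, adjusted p = 0.00961 in 4sU mice and 1.5 ± 0.29 SE, adjusted p = 0.0087 in DMSO mice. In DMSO mice Ccnd3, a cyclin of G1, also fell (-0.33 ± 0.08 SE, adjusted p = 0.0396). Cdkn1a holds cells in G1 and is also expressed in cells that do not divide.

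Chronic stress was compared with baseline in each injection. In DMSO mice none was called, as in the whole table (0.0%, with 913 genes and 3 members at an unadjusted p under 0.05, and 11 genes but no member with DESeq2), and member fold changes lay between -0.60 and 0.73 on the log2 scale. There the log2 fold change was 0.27 for Mki67, 0.41 for Top2a, 0.15 for Pcna, 0.14 for Mcm2, 0.21 for Mcm3, -0.02 for Mcm6, 0.73 for Cdk1, -0.04 for Ccna2, -0.54 for Ccnb1, -0.02 for Rrm2, -0.04 for Hells, 0.37 for Birc5, 0.21 for Hmgb2 and 0.30 for Cdt1. In 4sU mice 12 members were lower and 3 higher than at baseline, or 30.0%, where 56.5% of all genes tested were called, so again no more often than other genes. Of the 17 replication genes 9 were lower and none higher, and of the 13 spindle genes 1 was lower and 2 higher. Over all 16096 genes tested 4761 were lower and 4336 higher. The members' median was -0.35 beside -0.02 for all genes.

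All 6 helicase subunits fell in chronic stress 4sU mice. Mcm5 had 4.32, 4.37, 4.85 and 4.67 CPM in chronic stress 4sU libraries and 9.93, 11.5, 14.4, 10.9 and 9.44 CPM in baseline 4sU libraries (log2 fold change -1.32 ± 0.15 SE, adjusted p = 6.01e-07). Mcm2 had 6.68, 5.89, 3.55 and 5.32 CPM in chronic stress libraries, against 10.1, 11.5, 12.04, 12.3 and 13.9 CPM in baseline libraries (log2 fold change -1.18 ± 0.16 SE, adjusted p = 3.45e-06). Mcm3 and Mcm6 were lower by 1.14 and 0.90 on the log2 scale, and Mcm4 and Mcm7, the subunits with the most reads, by 0.38 and 0.36. With 3′ UTR reads Mcm2, Mcm3, Mcm5 and Mcm6 were called again, and Mcm4, Mcm7, Cdt1 and Gins2 missed the threshold. In Mcm2, Mcm3, Mcm5, Mcm6 and Mcm7 no chronic stress library reached the baseline range. Cdt1 had 1.96, 1.58, 1.48 and 0.887 CPM in chronic stress libraries and 3.21, 4.102, 4.77, 4.63 and 3.66 CPM in baseline libraries (log2 fold change -1.48 ± 0.24 SE, adjusted p = 3.16e-05). Uhrf1 fell by 1.64, Mybl2 by 1.19 and Gins2, a partner of the helicase, by 0.71. Pbk and Cenpf, both mitotic, fell by 1.35 and 0.87. The genes Top2a, Mki67, Rrm2, Birc5, Hells, Hmgb2, Pcna, Cdk1, Ccna2 and Ccnb1 were not called, with log2 fold changes from -0.70 (Rrm2) to 0.41 (Hells).

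Anln, Ect2 and Smc2 were higher in chronic stress than in baseline 4sU mice. Anln had 139, 106, 92.8 and 113 CPM in chronic stress libraries, against 52.9, 57.7, 67.2, 56.7 and 54.2 CPM in baseline libraries, with no overlap (log2 fold change 0.95 ± 0.10 SE, adjusted p = 8.55e-07). Ect2 was higher by 0.91 and Smc2 by 0.39. All 7 myelin markers were higher as well (median 1.36), with summed levels of 18640 to 20080 CPM in chronic stress and 6612 to 9205 CPM in baseline 4sU libraries, and their part in the Anln value was not tested. Endothelial markers were also higher, with sums of 237 to 281 CPM in chronic stress and 116 to 151 CPM in baseline 4sU libraries. Progenitor and neuroblast markers were lower in sum, at 237 to 289 and 306 to 339 CPM. Neither sum overlapped, but the mean log2 CPM of the progenitor and neuroblast markers did, at 3.547 to 3.906 and 3.815 to 3.932. The part of these cells in the values of the helicase genes was not tested.

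The fold changes of the 2 injections were then compared directly. The chronic stress effect in 4sU mice minus that in DMSO mice was called in 14 members, 12 below and 2 above 0, or 28.0%, where 38.0% of all genes tested were called. With 3′ UTR reads 4 of these 14 were called again (Mcm5, Mcm6, Anln and Smc2), 8 missed the threshold (Cdt1, Uhrf1, Mcm2, Mcm3, Mcm4, Mcm7, Gins2 and Mybl2) and 2 could not be tested. It was -1.78 ± 0.34 SE, adjusted p = 0.000496 for Cdt1, -1.71 ± 0.22 SE, adjusted p = 8.83e-06 for Mcm5 and -1.72 ± 0.36 SE, adjusted p = 0.00098 for Uhrf1 on the log2 scale. Mcm3, Mcm2 and Mcm6 stood at -1.36, -1.32 and -0.88, Mcm4 and Mcm7 at -0.48 and -0.42, Gins2 at -1.22, Mybl2 at -1.33, Pbk at -1.68 and Ccnb2, a mitotic cyclin, at -1.06. Differences for Anln and Smc2 were 0.77 and 0.49. Differences that were not called included -0.19 for Pcna, -1.18 for Cdk1, -0.02 for Ccna2, 0.59 for Ccnb1, -0.69 for Rrm2, 0.44 for Hells, -0.97 for Birc5 and -0.27 for Hmgb2. In Top2a the difference was -1.07 ± 0.42 (adjusted p = 0.0536), in Mki67 -0.67 ± 0.34 (adjusted p = 0.135) and in Pclaf -0.94 ± 0.49 (adjusted p = 0.144), so for the 3 genes called lower in every state a difference between chronic stress and baseline was not called. For Top2a this call turned on the fit: DESeq2 gave an adjusted p = 0.0478, and edgeR with a replicate block 0.021. Leaving out baseline 4sU replicate 5, chronic stress DMSO replicate 2 or DMSO replicate 3 gave 0.0315, 0.0317 and 0.045. Without chronic stress DMSO replicate 1 the Top2a difference was -0.56 (adjusted p = 0.254). Mki67 was called once chronic stress 4sU replicate 2 was left out (-0.89, adjusted p = 0.0422, edgeR). This contrast and the stress comparison in 4sU mice share libraries and cross the division in 3′ UTR reads.

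**Figure D5:**
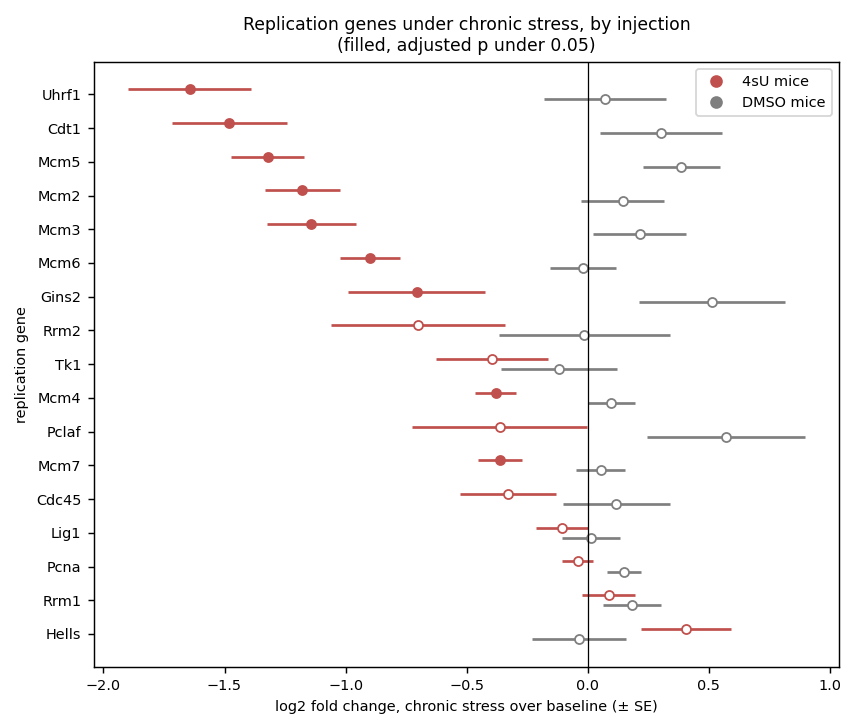
Log2 fold change of chronic stress over baseline for the 17 replication genes in 4sU mice (red) and in DMSO mice (grey), with bars of 1 SE and filled points at an adjusted p under 0.05. The red points of Uhrf1, Cdt1, Mcm5, Mcm2, Mcm3 and Mcm6 lie at -0.90 or lower, while no grey point is filled.

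Chronic stress was also set against acute stress, in a fit of all 6 groups that shares the chronic stress libraries with the comparisons above. In 4sU mice 10 members were lower and 5 higher (30.0%), where 47.2% of all genes tested were called. With 3′ UTR reads the balance turned, with 2 lower and 7 higher of 32 tested. Anln, Ect2, Hells, Mcm5 and Smc2 were called again, 9 of the 15 missed the threshold (Mcm2, Mcm3, Mcm4, Mcm6, Cdt1, Mybl2 and Uhrf1 among them), and Uhrf1 changed sign, to 0.016. In exon reads Aurkb was lowest at -1.64 ± 0.62 SE, adjusted p = 0.0326, then Uhrf1 at -1.26, Cdt1 at -1.16 and Mcm5 at -1.02 on the log2 scale. Mcm2, Mcm3, Mcm6 and Mcm4 fell by 0.87, 0.67, 0.55 and 0.23, and Mybl2 and Racgap1 by 0.66 and 0.43. In this comparison the members not called included -0.25 for Mki67, -0.31 for Top2a, 0.08 for Pcna, 0.02 for Cdk1, 0.22 for Ccna2, -0.65 for Ccnb1, -0.47 for Rrm2, -0.20 for Birc5 and -0.08 for Hmgb2. Ect2 was higher by 1.39, Anln by 0.88, Hells by 0.79, Smc2 by 0.46 and Prc1, a spindle midzone protein, by 0.29. In DMSO mice none of the 50 was called, where 1.78% of all genes tested were (6 members at an unadjusted p under 0.05, and 0 with DESeq2). Log2 fold changes there included 0.08 for Mki67, 0.05 for Top2a, -0.00 for Pcna, 0.40 for Mcm2, 0.39 for Mcm3, 0.38 for Mcm6, 0.44 for Cdk1, -0.01 for Ccna2, -0.61 for Ccnb1, -0.45 for Rrm2, 0.41 for Hells, 0.21 for Birc5 and -0.02 for Hmgb2. The smallest p was that of Cdt1, with 3.298, 4.099 and 1.97 CPM in chronic stress DMSO libraries and 1.33, 1.85, 2.66, 1.57 and 1.44 CPM in acute stress DMSO libraries (log2 fold change 0.82 ± 0.25 SE, adjusted p = 0.0956). Mcm3, Mcm5, Mcm6, Gins2 and Mybl2 had all 3 chronic stress DMSO libraries above all 5 acute stress ones, with adjusted p = 0.143 (Mcm5) to 0.398 (Mcm3). None of them was called, and how many of all genes split in this way was not counted.

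The other genes of the pathway were counted in the same way. Of 124 other genes tested at baseline 14 were higher and 40 lower in 4sU than in DMSO mice, and under acute stress 14 and 58. Over all genes tested 41.9% were called at baseline and 48.3% under acute stress. Those with the smallest p were Orc4, a subunit of the origin recognition complex (-0.73 ± 0.05 SE, adjusted p = 1.18e-08 at baseline and -0.60 ± 0.05 SE, adjusted p = 2.04e-08 under acute stress), Fzr1, an activator of the anaphase-promoting complex (0.92 ± 0.08 SE, adjusted p = 1.18e-07 and 0.79 ± 0.08 SE, adjusted p = 1.65e-07), and Cdkn1b, the CDK inhibitor p27 (-0.72 ± 0.07 SE, adjusted p = 3.11e-07 and -0.92 ± 0.07 SE, adjusted p = 6.52e-09), on the log2 scale. Under chronic stress none of 125 was called (median -0.13), and the smallest p was that of Rbl1, an RB family protein (log2 fold change -0.69 ± 0.15 SE, adjusted p = 0.0655). Next came Ndc80, Cdca5 and Kif2c, all mitotic, at -2.15, -2.72 and -2.47. Against baseline, chronic stress 4sU mice had 36 of 125 higher and 29 lower, where 56.5% of all genes tested were called. Fzr1 fell by 0.93 there, while Cdkn1b, Orc4 and Pttg1 (securin) were higher by 0.84, 0.70 and 0.75. Chronic stress DMSO mice had none called.

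Labelling by 4sU was read as T-to-C conversions in 3′ UTR intervals, and it was too sparse to compare for most members. All 50 had an interval, but only Anln, Ccna2, Kif20a and Smc2 reached a mean of 2000 covered T positions a library. Per state 0 of these 4 were called, where 7.2%, 11.6% and 14.1% of all genes tested were called at baseline, under acute and under chronic stress (edgeR, and 0 of the 4 at an unadjusted p under 0.05). Coverage was uneven, with 503071 covered T positions over all libraries in Anln, 126703 in Ccna2, the next, and 0 in Cdc45 and Cdc20. Rates over the 50 members together therefore weigh Anln most. By these rates, 4sU libraries had 57 conversions in 183969 covered T at baseline (0.0310%). DMSO libraries had 60 in 236675 (0.0254%). Under acute stress these were 59 in 199776 (0.0295%) in 4sU and 60 in 345114 (0.0174%) in DMSO libraries, and under chronic stress 54 in 237711 (0.0227%) and 36 in 196170 (0.0184%). Per library the members' rate was 0.0113% to 0.0451% with 4sU and 0.0131% to 0.0278% with DMSO, and over the 3 states together these ranges overlapped. Within states they overlapped at baseline and under chronic stress, but not under acute stress, where 4sU libraries had 0.02495% to 0.0331% and DMSO libraries 0.0149% to 0.0204%. Over all genes the rate was 0.0400% to 0.0778% with 4sU and 0.0228% to 0.0318% with DMSO, which did not.

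Anln, with the most covered T positions of the members, gave 18 conversions in 56017 positions in 4sU and 17 in 75844 in DMSO libraries at baseline. Under chronic stress it gave 22 in 99314 in 4sU and 7 in 69823 in DMSO libraries. Its log2 ratio of rates was 0.51 ± 0.73, 0.43 ± 0.75 and 1.13 ± 0.85 (adjusted p = 0.868, 0.848 and 0.486) at baseline, under acute and under chronic stress. A difference in labelling of the size seen over all genes was not detectable at this depth in single members.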

How the data were processed

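RNA of mouse amygdala was alkylated and sequenced by SLAM-seq, in which 4sU taken up by new RNA is read as T-to-C conversions. Per the submitters' processing notes, reads were handled with cutadapt 3.1, HISAT2 2.1.0, SAMtools 1.9 and featureCounts 2.0.1 on mm10. The deposited exon tables hold raw counts per gene, and the 9 baseline columns in both tables were identical. Per the file headers, slamdunk 0.4.3 made the conversion tables, which the authors deposited with counts of conversions, covered T positions and reads, and with CPM and a conversion fraction, per 3′ UTR interval. The 6 cortex libraries are not analysed here.

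Members and lists were chosen with earlier results of these data known. Exon counts were tested with edgeR 4.0.16 (R 4.3.3; TMM, filterByExpr, robust quasi-likelihood test), with Benjamini-Hochberg adjustment over all genes tested, in a fit of the 4 groups of each table, and of all 6 for chronic against acute stress. The SE is the log2 fold change over the root of F. Calls have an adjusted p under 0.05. Conversions were tested with the log of covered T as offset, at a minimum of 2000 covered T positions in the mean over libraries, after keeping the interval of each gene with most of them (87.5% of covered T kept). CPM shown in the text was computed from the deposited counts. The fits were tested on simulated data.

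Members named with values were, per comparison, the called ones with the 10 largest fold changes, and the fixed members Mki67, Top2a, Pcna, Mcm2, Mcm3, Mcm6, Cdk1, Ccna2, Ccnb1, Rrm2, Hells, Birc5, Hmgb2 and Cdt1. Other pathway genes were named by smallest p, up to 4 per comparison. The alternatives were RLE scaling, no low-count filter, DESeq2 1.42.0, 3′ UTR reads, other sets of groups in the fit, a replicate block, leaving out each library and other coverage minimums. Leaving out 6 libraries low in glutamatergic markers was added after seeing the data. Depth ran from 16150316 to 21228741 exon counts a library, and no pair of libraries agreed within sampling noise.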

Additional observations from a re-analysis of the deposited data

Results flagged for a closer look

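Single libraries stood apart from the rest of their group in 16 of the 250 sets of 1 member in 1 group of 4 or 5 libraries, where chance gives about 1 in 20. Among replication genes, DMSO replicate 4 at baseline was high for Mcm6 (18.2 CPM, others 13.7 to 14.2) and Mcm7 (21.2 CPM). Cdc45, a helicase partner, was high in 4sU replicate 4 at baseline (3.09 CPM) and low in 4sU replicate 4 under chronic stress (1.42 CPM). Under acute stress Pcna was high in DMSO replicate 2 (74.2 CPM, others 47.1 to 52.0), Pclaf was high in 4sU replicate 4 (0.635 CPM), and Rrm2 was low in 4sU replicate 2 (1.41 CPM) and high in DMSO replicate 3 (5.68 CPM).

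Among mitotic and chromosome genes, Ccnb1 was low in DMSO replicate 1 at baseline (0.169 CPM) and Cdk1 was high in 4sU replicate 2 under chronic stress (0.668 CPM). Under acute stress DMSO replicate 4 was low for Pbk (0.757 CPM) and high for Kif4 (1.86 CPM), and DMSO replicate 3 was high for Ncapg (1.78 CPM). Top2a was high in 4sU replicate 4 (2.22 CPM) and Hmgb2 in 4sU replicate 3 (7.08 CPM) under acute stress, and Hmgb2 was low in 4sU replicate 2 under chronic stress (3.95 CPM).

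The chronic stress effect in 4sU mice differed from that in DMSO mice in 14 members by the test of the difference itself (edgeR). The log2 differences were -1.78 for Cdt1, -1.72 for Uhrf1, -1.71 for Mcm5, -1.68 for Pbk, -1.36 for Mcm3, -1.33 for Mybl2, -1.32 for Mcm2, -1.22 for Gins2, -1.06 for Ccnb2, -0.88 for Mcm6, -0.48 for Mcm4 and -0.42 for Mcm7. They were 0.49 for Smc2 and 0.77 for Anln. This contrast crosses the division in 3′ UTR reads, from which the group cannot be told apart.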

How the results depend on the processing

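Over all 50 members, the 11 comparisons of exon counts and every alternative, 247 of 9599 values lost a call and 116 gained one, beside members that could not be tested. For the 200 values followed by name, 3248 values under the alternatives kept their side of the threshold, 138 lost a call and 32 gained one. Another 5 changed sign with a call in either fit. Signs of values called in neither fit were not compared. With 3′ UTR reads the count of called members was 10 at baseline and 12 under acute stress for 4sU against DMSO, 0 under chronic stress, 9 for chronic against acute stress in 4sU mice (7 higher, 2 lower) and 6 for the difference between injections in the chronic stress effect. These 5 sign changes came with those reads: Kif11 at baseline was 0.065, Ccna2 and Hmgb2 for chronic stress against baseline in 4sU mice 0.64 and 1.09, Uhrf1 for chronic against acute stress in 4sU mice 0.016 and Ccna2 for the difference in the chronic stress effect 0.47. The cause was not tested, though fewer members were tested (28 to 32).

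For 4sU against DMSO under chronic stress, 8 members in the fit as reported became 4 with the replicate block, 16 with DESeq2, 0 with only the 2 groups compared and 1 without the 6 libraries low in glutamatergic markers. Over all genes this comparison called 22, and 147 with DESeq2. Leaving out 1 library gave 2 to 6 members there, 11 to 18 at baseline, 24 to 28 under acute stress, 14 to 17 for chronic stress against baseline and 12 to 17 for chronic against acute stress in 4sU mice, and 10 to 15 for the difference in the chronic stress effect. In DMSO mice it gave 0 to 1 for acute stress against baseline and for chronic against acute stress, and DESeq2 gave 1 for acute stress. With a minimum of 500 covered T positions, 1 member (Pclaf, higher) was called for conversion under acute stress. Deviations of libraries with the same replicate number had correlations of -0.36 to 0.36, not all over 0.1 in any comparison. For chronic against acute stress 2 of 4 pairs in 4sU mice and 2 of 3 in DMSO mice were over 0.1. The numbers were not used to pair libraries, though so few pairs cannot show that none exist. Beside the chronic stress count above, the block moved no count by over 1.5 times. Low counts limit Ccnb1, Bub1 and the conversion rates most.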
